A study of Arabidopsis thaliana with 18 samples.

Results

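In this Arabidopsis thaliana series 100 transcripts were taken as loaded on polysomes both in seedlings and in dry seeds. Of the 27827 loci in the deposited value table, 2803 had a polysomal group mean of at least 6 (log2 intensity) at both stages and did not carry a mitochondrial genome identifier. The members were selected on the polysomal and monosomal values themselves. The rankable loci were ordered by the smaller of the seedling and the dry seed difference between the polysomal and the monosomal mean, and the first 100 were kept. Polysomal and monosomal values of the members are therefore given below as a description, without a test. The total RNA arrays had no part in the choice.

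The plants were of the ecotype Columbia-0 (Col-0) with no mutant, transgene or treatment named in any group. RNA was profiled from seedlings imbibed for 72 hours and from dry seeds, in each case as polysomal, monosomal and total RNA, with 3 arrays for each of the 6 groups and 18 in all. Plants stood in a randomized layout of complete blocks, 8 of them were bulked for a replicate, and the labels name 3 biological replicates of freshly harvested dry seed. How the seedling replicates and the monosomal fraction were obtained is not given in the sources used here, so p-values measure the spread between these arrays, which may in part be technical.

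A messenger RNA that carries several ribosomes at once sediments with polysomes, whereas one that carries a lone ribosome sediments with monosomes. The spread of a transcript between these fractions depends on how often initiation occurs, how fast ribosomes move and how long the coding sequence is. Dry seeds hold stored messenger RNAs from maturation, and germination replaces much of that store with transcripts of the growing seedling. The deposited values are log2 intensities from a processing that usually scales arrays to each other. A polysomal value is therefore read as a transcript's share of the labelled polysomal RNA and not as the number of ribosomes on it. The length of the coding sequences was not analysed here.

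Replicate arrays correlated at r between 0.957 and 0.990 across loci, which are not independent replicates. The tissue labels held against marker genes. All 6 seed markers (CRA1, CRU2, CRU3, SESA1, OLEO1 and the EM6 gene, listed as GEA6) had group means between 2.12 and 5.99 in the seedling fractions, against 9.13 to 11.80 in the dry seed fractions. The seedling markers CAB1, RBCS1A and LHCB2.2 had means between 10.79 and 12.17 in seedlings, against 2.15 to 6.80 in dry seeds. The seed coat and endosperm gene EPR1 averaged 6.67 in seedling total RNA, the root gene CASP1 6.86 and the stomatal gene SPCH 5.19, against 11.05, 2.99 and 1.47 in dry seed total RNA. Seed marker means in seedling monosomal RNA ran from 2.98 to 5.99, and those arrays were not compared one by one here. Within seedling polysomal RNA, the group whose markers were compared by array, 1 library stood apart. On seedling polysomal replicate 3 the seed markers read 4.51 to 7.57, against 1.37 to 4.49 on the other 2 arrays of that group. The members' values on that array had a median deviation of −0.14 from their group means. Other arrays deviated as much, with −0.15 on seedling monosomal replicate 3 and 0.21 on dry seed monosomal replicate 1. Whether seed material on an array affected the list was not tested. Applying the rule without seedling polysomal replicate 3 kept 75 of the 100 members.

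All 100 members were annotated as protein coding, and 58 carried a gene symbol. In seedlings their polysomal minus monosomal difference had a median of 1.05 (range 0.87 to 3.07), and in dry seeds a median of 1.14 (range 0.87 to 2.45). Over the 2803 rankable loci the medians were 0.25 in seedlings and 0.145 in dry seeds. For 42 members the difference was at least 1, a doubling, at both stages. Every polysomal array lay above every monosomal array in 100 of 100 members at each stage. Among all loci this held for 16.5% in seedlings and 19.2% in dry seeds. The rule used these contrasts, so the counts restate it.

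**Figure D1:**
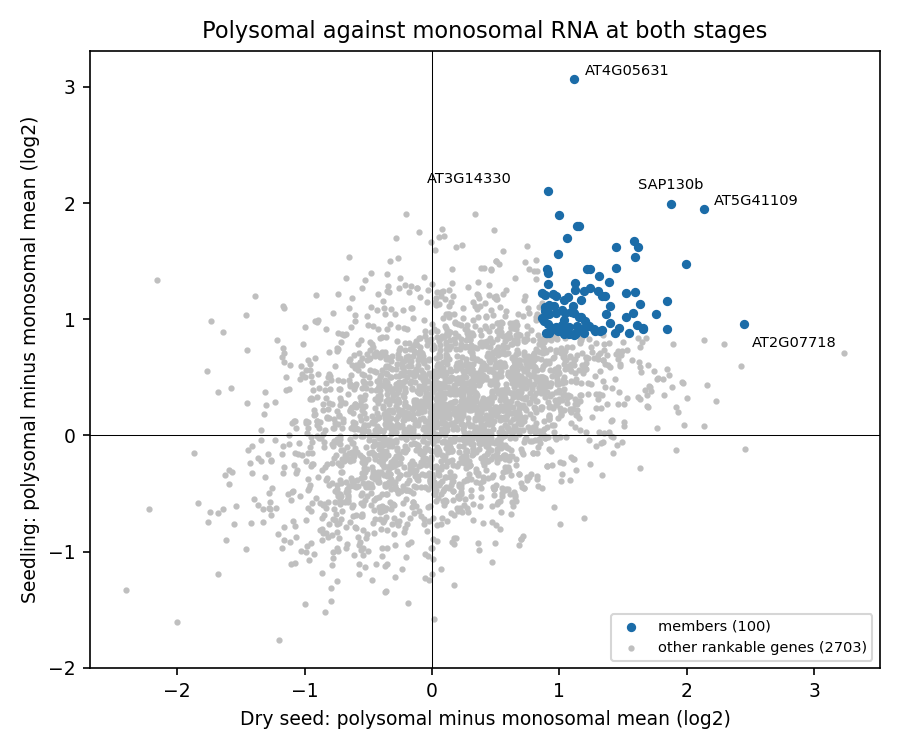
Polysomal minus monosomal group means (log2) of the 2803 rankable genes, with dry seeds on the x axis and seedlings on the y axis; blue points are the 100 members and grey points the others. The members fill the upper right corner above 0.87 on both axes, with AT4G05631 at 3.07 in seedlings and AT2G07718 at 2.45 in dry seeds as the extremes.

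The first rank went to AT5G41109, a protein-coding locus without a symbol. It read 5.72, 6.31 and 6.12 on the seedling polysomal arrays, against 4.23, 4.35 and 3.72 on the seedling monosomal arrays. On the dry seed polysomal arrays it read 6.19, 6.64 and 6.24, against 4.83, 3.57 and 4.28 on the dry seed monosomal arrays. The polysomal level was thus 3.86-fold the monosomal one in seedlings and 4.38-fold in dry seeds. Its total RNA averaged 5.60 ± 0.23 in seedlings and 5.62 ± 0.27 in dry seeds (SD, n = 3 each), and these ranges overlapped.

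SAP130b (AT3G55220), a subunit of the spliceosome, came next. It read 6.06, 5.86 and 6.27 in seedling polysomal RNA, against 5.26, 4.36 and 2.59 in seedling monosomal RNA. In dry seeds it read 8.16, 8.19 and 7.71 on polysomes, against 6.56, 6.47 and 5.39 on monosomes. Its monosomal replicates were the most scattered of any member in seedlings (SD 1.36), and replicate 3 was the lowest of them. A near-identical copy, SAP130a, is known in the genome, and how the probes separate the copies is not given in the sources used here. EMB2765 (AT2G38770), named for its embryo-defective mutant, was far tighter in dry seeds, with polysomal values of 8.07, 8.07 and 8.04, against monosomal values of 6.64, 6.49 and 6.21. In seedlings it read 5.75, 6.46 and 6.23 on polysomes, against 4.69, 4.46 and 4.44 on monosomes.

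The splicing helicase gene EMB3011 (AT5G13010, also PRP16) differed between the fractions by 1.67 in seedlings and by 1.59 in dry seeds. HB-1 (AT1G28420, also RLT1), a homeobox partner of chromatin remodellers, showed nearly the same difference at both stages, 1.44 in seedlings and 1.45 in dry seeds. SPA2 (AT4G11110), which acts with the ubiquitin ligase COP1 to hold back light responses, had 1.32 in seedlings and 1.39 in dry seeds. IQD30 (AT1G18840), of a family of calmodulin-binding proteins, had 1.37 in seedlings and 1.31 in dry seeds. AT3G50370 (1.53 in seedlings and 1.60 in dry seeds), AT4G31570 (1.48 and 1.99) and AT5G64420 (1.62 and 1.45), each in the same order, completed the first 10.

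**Figure D2:**
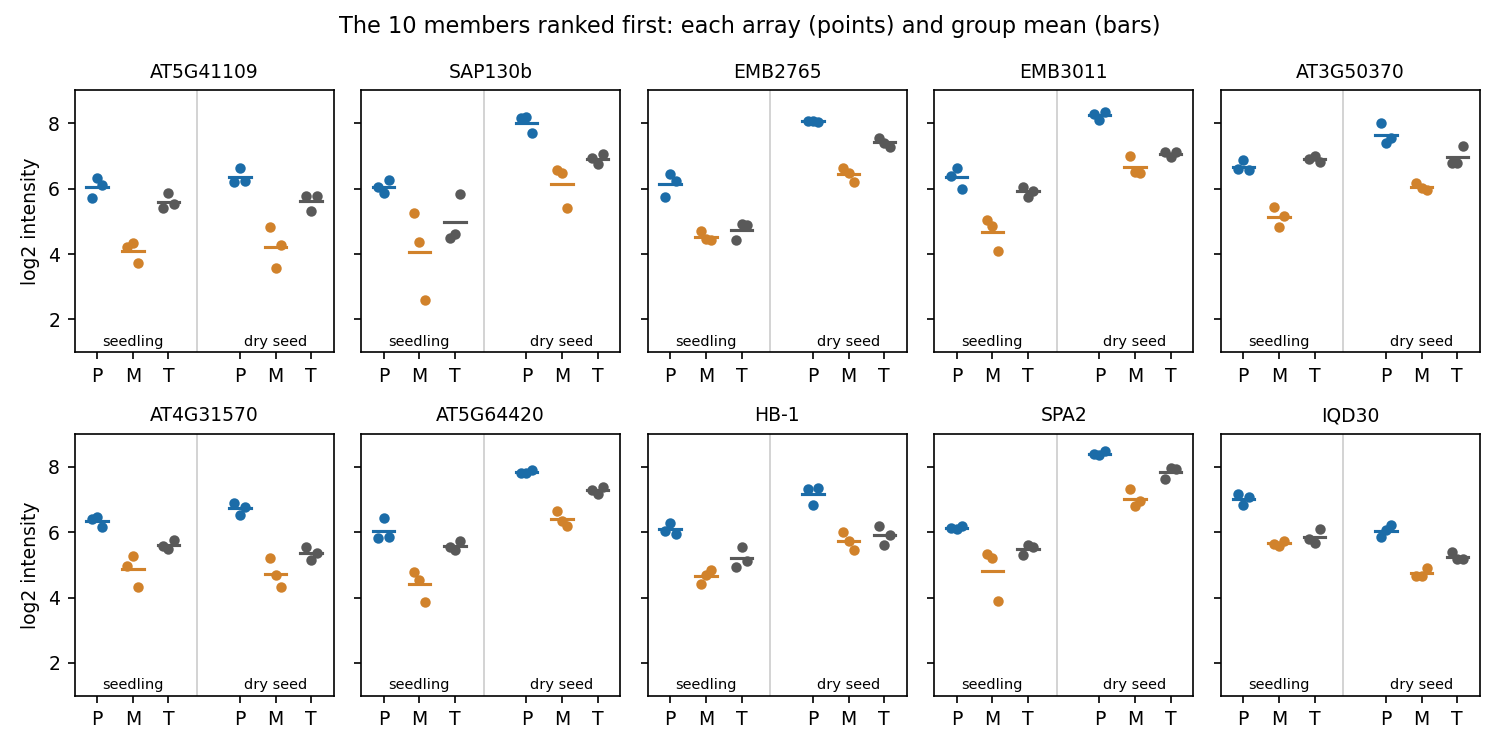
Log2 intensity of the 10 members ranked first on each array, by stage and by fraction (P polysomal, M monosomal, T total); points are arrays and bars are group means of 3. In each panel the polysomal points lie above all monosomal points of the same stage, and in SAP130b seedling monosomal replicate 3 reads 2.59.

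The difference was the larger one in seedlings for 40 members and in dry seeds for 60, and for 49 members the stages lay within 0.2 of each other. AT4G05631 was the most uneven towards seedlings. It read 7.63, 7.36 and 7.65 in seedling polysomal RNA, against 4.79, 4.75 and 3.89 in seedling monosomal RNA, an 8.39-fold difference. In dry seeds its polysomal level was 2.17-fold the monosomal one. AT3G14330 followed, with 2.10 in seedlings and 0.91 in dry seeds on the log2 scale. AT2G07718 was uneven the other way, with 0.96 in seedlings and 2.45 in dry seeds.

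The locus behind AT2G07718 is uncertain. Its values were identical on all arrays to those of the mitochondrial row ATMG00590, so the same signal carries both names, although mitochondrial identifiers had been left out. AT2G07725 was close to the mitochondrial row ATMG00210, with a mean absolute difference of 0.18 over the arrays and a largest one of 0.31. In both rows total RNA lay above polysomal RNA in seedlings. AT2G07725 read 8.64, 8.58 and 7.97 in seedling polysomal RNA, against 9.59, 9.37 and 9.30 in seedling total RNA. Without these 2 rows the members numbered 98.

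The edge of the list was narrow. Just inside it AT1G80930 had a score of 0.8668 and AT5G36210 one of 0.8664, and just outside it ARI5 (AT1G05890) had 0.8653 and UBP13 (AT3G11910), a ubiquitin-specific protease gene, 0.8621. When replicate 1, 2 or 3 was left out of all 4 groups and the rule applied to the others, 76, 74 and 66 members were chosen again. The left-out arrays, which that choice did not use, also showed the difference. Since the replicates may in part be technical, these arrays are not an independent check of the list. In seedlings the median difference over the 100 loci so chosen was 0.82, 1.03 and 0.92, and 99, 98 and 99 of them lay above 0. In dry seeds the medians were 0.99, 1.16 and 1.37, and 100, 99 and 100 lay above 0. Over all rankable loci 61.5% to 67.3% lay above 0 on these arrays in seedlings and 54.6% to 59.8% in dry seeds. Leaving out single arrays kept between 75 and 96 members, and 37 stayed in the list in all 12 such cases.

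Total RNA usually lay between the fractions. For 86 members in seedlings and 92 in dry seeds its mean was under the polysomal and over the monosomal mean. Among all 27827 loci this held for 3975 in seedlings and 5805 in dry seeds. Polysomal minus total RNA had a median of 0.47 in seedlings and 0.62 in dry seeds, and was above 0 in 92 and 99 members. Over all 27827 loci the medians were 0.08 in seedlings and −0.08 in dry seeds, and 56.2% and 42.6% lay above 0. Monosomal minus total RNA had a median of −0.67 in seedlings and −0.60 in dry seeds, and was below 0 in 94 and 93 members. Over all loci these medians were 0.11 and −0.02, and 12085 and 14542 loci lay below 0. Every polysomal array exceeded every total array in 63 members in seedlings, against 23.4% of all loci, and in 89 members in dry seeds, against 15.5% of all loci. One side of each of these differences was used by the rule, and no test is given.

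In seedlings total RNA lay above polysomal RNA in 8 members, among them XRN4 (AT1G54490), the cytosolic exoribonuclease, AT3G50370 and AT4G05631. In dry seeds only AT2G07725 did so. Total RNA lay below monosomal RNA in 6 members in seedlings, of which BSL2 (AT1G08420) had a monosomal minus total difference of 0.41, and in 7 members in dry seeds. One of the 7 was CHR11 (AT3G06400), a chromatin remodeller of the ISWI family, with 8.14, 8.01 and 8.06 in polysomal RNA and 7.71, 7.05 and 6.73 in monosomal RNA, against 6.40, 6.15 and 6.96 in total RNA. Another was CYCT1;4 (AT4G19600), a cyclin of transcription kinases, with 7.45, 7.49 and 7.56 in polysomal RNA and 6.51, 6.52 and 5.95 in monosomal RNA, against 5.81, 6.48 and 5.96 in total RNA.

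**Figure D3:**
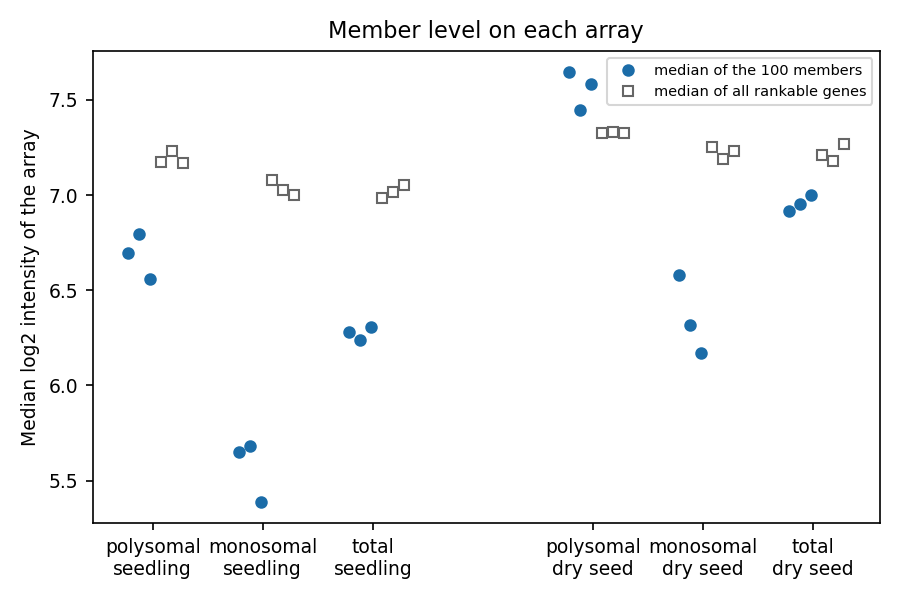
Median log2 intensity on each array of the 100 members (blue circles) and of all 2803 rankable genes (grey squares), by fraction and stage. Member medians run from 6.56 to 6.80 in seedling polysomal, 5.39 to 5.68 in seedling monosomal and 6.24 to 6.31 in seedling total RNA, and from 7.44 to 7.65 in dry seed polysomal and 6.17 to 6.58 in dry seed monosomal RNA, with dry seed total RNA between them.

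Whether transcripts that stay loaded also keep their level in total RNA was asked on the total RNA arrays, which the choice did not use. Many of the members were lower in seedling total RNA. In limma with Benjamini-Hochberg adjustment over all loci, 52 of 100 members fell and 11 rose, while 37 were not called. Of all loci 33.3% fell and 28.8% rose, and of the rankable loci, from which the members came, 40.0% fell and 31.0% rose. At least 2-fold changes were called as falls in 31 members and as rises in 5, against 19.2% and 21.9% of all loci and 23.4% and 19.1% of the rankable ones. The median change was −0.55 over the members and −0.17 over the rankable loci. Seedling and dry seed arrays did not overlap in 81 members, against 66.8% of all loci and 81.2% of the rankable loci, so the members did not stand out from the rankable loci in this. A total RNA value is likewise read as a transcript's share of the labelled total RNA. In these bulk samples a smaller share, fewer cells that hold a transcript and less of it per cell cannot be told apart.

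The split depended on the scaling. As deposited, the total RNA array medians over all loci were 3.07 to 3.17 in dry seeds and 3.62 to 3.65 in seedlings. With cyclic loess between arrays 38 members fell and 27 rose, where of all loci 28.9% fell and 29.5% rose, and of the rankable loci 31.8% fell and 38.9% rose. With each array centred on its median 71 members fell and 5 rose, where of all loci 54.0% fell and 20.8% rose, and of the rankable loci 57.0% fell and 20.4% rose. Those settings moved the median of the rankable loci to 0.12 and −0.68. The member median minus the rankable median was −0.38 as deposited and −0.33 with loess. Median centring shifts all loci of an array alike and cannot change this gap. A list mirrored from the same rule, the 100 loci held most on monosomes at both stages, had a median of 0.60 as deposited, with 32 falls and 52 rises. With loess it had a median of 0.83, with 29 falls and 58 rises. With median centring its median was 0.09, with 39 falls and 35 rises, so that rises no longer outnumbered falls. No test of the difference between the lists was made.

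**Figure D4:**
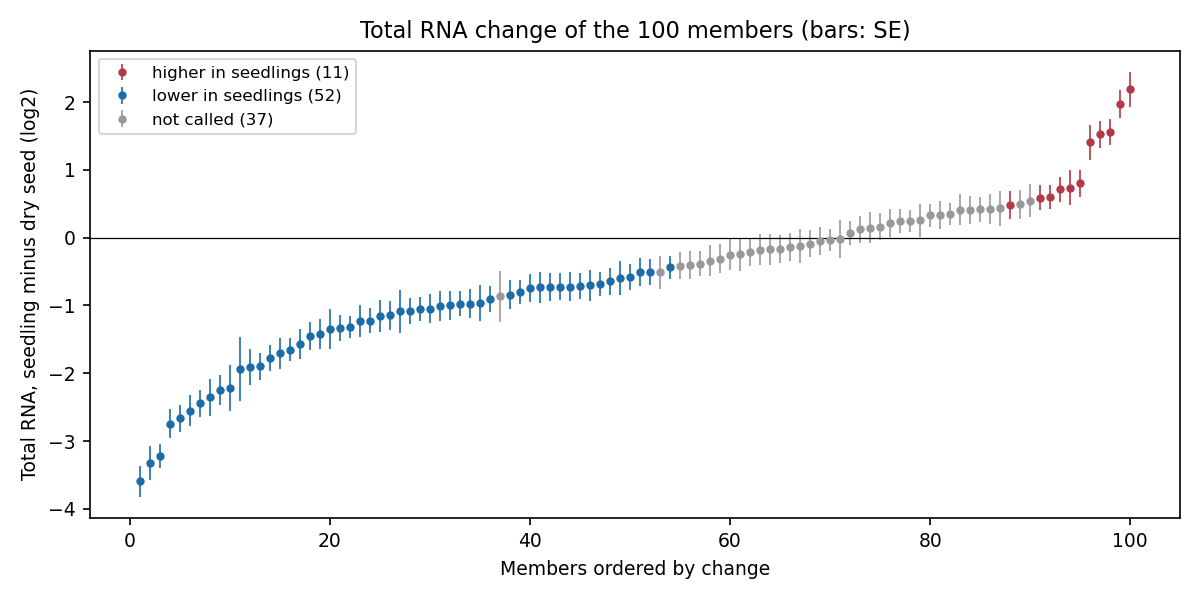
Change in total RNA, seedling minus dry seed (log2, bars are standard errors), for the 100 members in order of size; blue marks the 52 called lower, red the 11 called higher and grey the 37 not called. The changes run from −3.59 (RSH2) to 2.19 (AT1G01320).

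The deepest fall was that of RSH2 (AT3G14050), a RelA/SpoT homolog that makes the alarmone ppGpp in plastids. It read 5.63, 5.75 and 6.30 in seedling total RNA, against 9.37, 9.52 and 9.57 in dry seed total RNA (change −3.59, SE 0.23, limma adjusted p = 4.10e-11). On polysomes it read 6.30, 6.18 and 5.75 in seedlings, against 9.74, 9.66 and 9.81 in dry seeds, so the level on polysomes differed between stages by about as much as the total, while the polysomal excess over monosomes was 0.93 in seedlings and 0.97 in dry seeds. RL2 (AT5G45160), related to the endoplasmic reticulum shaping protein RHD3, had 5.08, 5.39 and 5.12 in seedling total RNA, against 8.59, 8.56 and 8.40 in dry seed total RNA (change −3.32, SE 0.25, limma adjusted p = 6.35e-10). AT3G03790 fell by 3.22 (SE 0.18, limma adjusted p = 6.30e-12). For ML4 (AT5G07290), an RNA-binding protein of the MEI2-like family, the change was −2.74 (SE 0.22, limma adjusted p = 1.26e-09), and for EMB2765 it was −2.67 (SE 0.20, limma adjusted p = 6.62e-10).

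Among the rises AT1G01320 had the largest, with 7.65, 7.94 and 7.67 in seedling total RNA, against 5.63, 5.55 and 5.52 in dry seed total RNA (change 2.19, SE 0.26, limma adjusted p = 3.70e-07). Tudor2 (AT5G61780), a Tudor-SN nuclease that binds RNA in stress granules, read 7.55, 7.40 and 7.96 in seedlings, against 5.30, 5.81 and 5.92 in dry seeds (change 1.96, SE 0.21, limma adjusted p = 7.82e-08). LOX1 (AT1G55020), a lipoxygenase, rose by 1.56 (SE 0.20, limma adjusted p = 9.44e-07) and CRY1 (AT4G08920), the blue light receptor cryptochrome 1, by 1.52 (SE 0.20, limma adjusted p = 1.82e-06). AT1G76810 rose by 1.41 (SE 0.26, limma adjusted p = 1.01e-04). These 10 genes were taken among called members whose seedling and dry seed arrays did not overlap. Of the 63 called members 62 had the same sign of change in polysomal RNA, the exception being AT5G47690. The rule used the polysomal values and the share among other called loci was not taken, so this count is a description.

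For 58 members a role was assigned from their annotated names, in 6 groups drawn up after the list was known. The counts by group are therefore a description. Of all loci 33.3% fell and 28.8% rose as deposited. With loess scaling 28.9% of all loci fell and 29.5% rose, and with median centring 54.0% fell and 20.8% rose. RNA processing, decay and translation held 13 members, of which 8 fell in total RNA and 1 rose (median change −0.72). With loess scaling 5 fell and 3 rose, and with median centring 10 fell and 1 rose. Nonsense-mediated decay was represented by LBA1 (AT5G47010, the helicase UPF1). LBA1 read 6.41, 6.42 and 6.19 in seedling total RNA, against 7.22, 7.39 and 7.41 in dry seed total RNA, and fell without overlap (SE of the log2 change 0.21, limma adjusted p = 3.93e-04), to 0.501 times its dry seed level. Its polysomal level exceeded the monosomal one by 1.22 in seedlings and by 1.52 in dry seeds.

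Of the genes for 5′ decay of messenger RNA, XRN4 fell by 0.58 (SE 0.19, limma adjusted p = 0.0139). The decapping scaffold gene VCS (AT3G13300) had 6.31, 5.76 and 6.03 in seedlings, against 6.51, 7.04 and 7.15 in dry seeds, and was not called (change −0.86, SE 0.37, limma adjusted p = 0.0521). In VCS seedling monosomal replicate 3 read 4.31, against 6.35 and 6.33 on the other arrays, so that its seedling difference of 0.91 rests on that array. Of the members with a role in splicing, SAP130b changed by −1.93 (SE 0.48, limma adjusted p = 0.00162), EMB3011 by −1.15 and emb1507 (AT1G20960, a helicase of the spliceosome) by −0.51, the last with overlapping arrays. The Pumilio gene PUM4 (AT3G10360) changed by −0.72. The calls of XRN4, emb1507 and PUM4 were lost with loess scaling. That of XRN4 was also lost without dry seed total replicate 3 (−0.51), and that of emb1507 without dry seed replicate 2 (−0.49) or 3 (−0.39) or seedling replicate 1 or 2 (−0.44 each).

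EIF3A (AT4G11420), the large subunit of the initiation factor eIF3, had nearly level values. It read 6.01, 6.15 and 6.15 in seedling total RNA, against 5.87, 6.07 and 5.99 in dry seed total RNA (change 0.12, SE 0.20, limma adjusted p = 0.605). On polysomes it read 6.76, 6.79 and 6.93 in seedlings, against 6.86, 6.67 and 6.93 in dry seeds, and these overlapped. EMB25 (AT1G70070, the chloroplast RNA helicase ISE2) and NSN1 (AT3G07050), a nucleolar GTPase, had changes of 0.33 and −0.17 without a call. EIF3A was the only member among 27 listed genes of translation factors, 20 of which could be ranked. The list does not hold every translation factor, and members without an annotated name were given no role. Of that list 20 genes were higher on polysomes than on monosomes in both seedlings and dry seeds and 3 were lower in both. Of those ranked, EIF3C (AT3G56150) came next after EIF3A, with 0.94 in seedlings and 0.74 in dry seeds. In total RNA 9 of the 27 rose and 5 fell (median 0.05), whereas with median centring 5 rose and 14 fell (median −0.45) and with loess 11 rose and 4 fell (median 0.31). The values as deposited included eIFiso4G2 (AT2G24050) with −1.81 and ELF5A-1 (AT1G13950) with 1.94.

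The chromatin and transcription group held 10 members, with 4 falls and no rise in total RNA (median −0.46). With loess scaling 2 fell and 2 rose (median −0.13), and with median centring 8 fell and none rose. GTE8 (AT3G27260), a bromodomain protein, read 5.26, 6.02 and 5.68 in seedlings, against 7.53, 7.51 and 7.62 in dry seeds (change −1.90, SE 0.26, limma adjusted p = 3.46e-06). WSIP2 (AT3G15880), a corepressor of the TOPLESS family also known as TPR4, fell by 1.31 (SE 0.17, limma adjusted p = 9.17e-07). HB-1 fell by 0.71 and the transcription factor gene SPL12 (AT3G60030) by 0.74, and both calls were lost with loess scaling. HB-1 also lost its call without dry seed total replicate 1 (−0.57) or seedling total replicate 1 (−0.58). PKL (AT2G25170), the CHD3 remodeller that represses embryonic genes in seedlings, read 6.14, 6.17 and 6.15 in seedlings, against 5.72, 5.49 and 5.96 in dry seeds, which did not overlap. It was not called (change 0.43, SE 0.25, limma adjusted p = 0.144), but was called higher with loess scaling (0.79). On polysomes PKL had 6.40, 6.32 and 6.11 in seedlings, and dry seed replicate 2 read below these at 6.01 while the other dry seed arrays read above. The corepressor gene SEU (AT1G43850) had a change of −0.51, CHR11 one of −0.13 and CYCT1;4 one of −0.34, all without a call. The clock genes TOC1 (AT5G61380) and TIC (AT3G22380) had −0.41 and 0.24, also without a call.

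Protein modification and turnover was the group in which all members, 6 of 6, fell in total RNA (median −1.49), and all 6 also fell under the 3 other scalings. Of all loci 33.3% fell as deposited and 28.9% to 54.0% under those scalings. The group was drawn by hand from the list, and SPA2, which acts with a ubiquitin ligase, was placed elsewhere. PHO2 (AT2G33770), a ubiquitin-conjugating enzyme that limits phosphate uptake, read 6.49, 6.37 and 6.31 in seedlings, against 8.95, 8.94 and 8.93 in dry seeds (change −2.55, SE 0.23, limma adjusted p = 1.05e-08). The SUMO ligase gene SIZ1 (AT5G60410) read 5.32, 5.10 and 5.49 in seedlings, against 7.04, 7.07 and 7.11 in dry seeds (change −1.77, SE 0.19, limma adjusted p = 1.23e-07). AT5G15400 (MUSE3), a ubiquitin chain elongation factor, fell by 1.65 and EOL1 (AT4G02680), an adaptor for turnover of ethylene synthesis enzymes, by 1.33. TPP2 (AT4G20850), a large peptidase, fell by 1.22, and KEG (AT5G13530), the ubiquitin ligase that removes the abscisic acid factor ABI5, by 1.01 (SE 0.22, limma adjusted p = 4.56e-04). On polysomes KEG read 5.81, 6.03 and 6.20 in seedlings, against 7.14, 7.14 and 6.95 in dry seeds.

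Among 6 genes of light and kinase signalling 4 fell and 1 rose. With loess scaling 2 fell and 1 rose, and with median centring 5 fell and 1 rose. SPA2 and CRY1 went in opposite directions. SPA2 read 5.31, 5.60 and 5.54 in seedling total RNA, against 7.63, 7.96 and 7.92 in dry seed total RNA (change −2.35, SE 0.27, limma adjusted p = 3.26e-07). CRY1 read 7.22, 7.25 and 7.37 in seedlings, against 5.59, 5.77 and 5.92 in dry seeds. Their polysomal excess over monosomes was 1.32 for SPA2 and 0.95 for CRY1 in seedlings, and 1.39 and 1.02 in dry seeds. BSL2 (AT1G08420), a phosphatase of the brassinosteroid pathway, fell by 1.35 (SE 0.29, limma adjusted p = 5.29e-04). BSK8 (AT5G41260), a kinase of the same pathway, fell by 0.73 and MPK16 (AT5G19010) by 0.64, and with loess scaling both calls were lost. BSK8 also lost its call without dry seed total replicate 2 (−0.57). YAK1 (AT5G35980), a growth-regulating kinase, had 6.99, 6.94 and 6.98 in seedlings, against 6.82, 6.93 and 6.96 in dry seeds (change 0.06, SE 0.18, limma adjusted p = 0.765).

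Of 12 genes for nuclear export, the cytoskeleton and membranes 3 fell, 2 rose and 7 were not called (median −0.13). This depended on the scaling, since 3 fell and 5 rose with loess (median 0.22), and 7 fell and none rose with median centring (median −0.64). XPO1A (AT5G17020), the exportin of nuclear proteins and ribosomal subunits, read 6.28, 6.39 and 6.53 in seedlings, against 7.53, 7.18 and 7.36 in dry seeds (change −0.96, SE 0.27, limma adjusted p = 0.00402). AT5G47480 (MAG5), for export from the endoplasmic reticulum, fell by 1.05. The microtubule gene MOR1 (AT2G35630) read 5.94, 5.99 and 5.88 in seedlings, against 5.67, 5.88 and 5.78 in dry seeds, and was not called (change 0.16, SE 0.19, limma adjusted p = 0.474). ATMIN7 (AT3G43300), an exchange factor of endosomal trafficking, rose by 0.80 (SE 0.20, limma adjusted p = 0.00158) and IQD30 by 0.60 (SE 0.18, limma adjusted p = 0.00634), but neither was called with arrays centred on their medians. Without a call stood EDA10 (AT1G01960) at −0.31, SFC (AT5G13300), an ARF-GAP of vein patterning, at −0.09, EHD1 (AT3G20290), of endocytosis, at 0.22, and the phosphoinositide enzyme genes FAB1C (AT1G71010) at 0.55, SAC8 (AT3G51830) at −0.38 and AT3G14205 (SAC2) at −0.18.

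Plastid and metabolic genes held 6 falls and 2 rises among 11 (median −0.72). With loess scaling there were 5 falls and 5 rises (median −0.36), and with median centring 6 falls and 1 rise (median −1.23). CLPB3 (AT5G15450), a plastid chaperone, fell by 1.05 (SE 0.18, limma adjusted p = 5.52e-05). G6PD6 (AT5G40760), which feeds the pentose phosphate pathway, fell by 0.97, AT3G01310 (VIP1), an inositol phosphate kinase, by 1.09, the trehalose phosphate synthase gene TPS8 (AT1G70290) by 0.80 and the chloroplast distribution gene Phox2 (AT1G62390) by 0.72. The call of Phox2 was lost with loess scaling. PKP-BETA1 (AT5G52920), a plastid pyruvate kinase subunit used in seed oil synthesis, read 7.92, 8.10 and 7.96 in seedlings, against 7.32, 7.28 and 7.23 in dry seeds (change 0.71, SE 0.19, limma adjusted p = 0.00263), and lost its call with arrays centred on their medians (0.21). TOC159 (AT4G02510), the receptor for import of photosynthetic proteins into plastids, had 7.64, 7.73 and 7.78 in seedlings, against 7.27, 7.41 and 7.48 in dry seeds. These ranges did not overlap, but the gene was not called (change 0.33, SE 0.17, limma adjusted p = 0.109). TPS7 (AT1G06410) and HEMG2 (AT5G14220), of haem and chlorophyll synthesis, had 0.42 and 0.41 without a call.

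**Figure D5:**
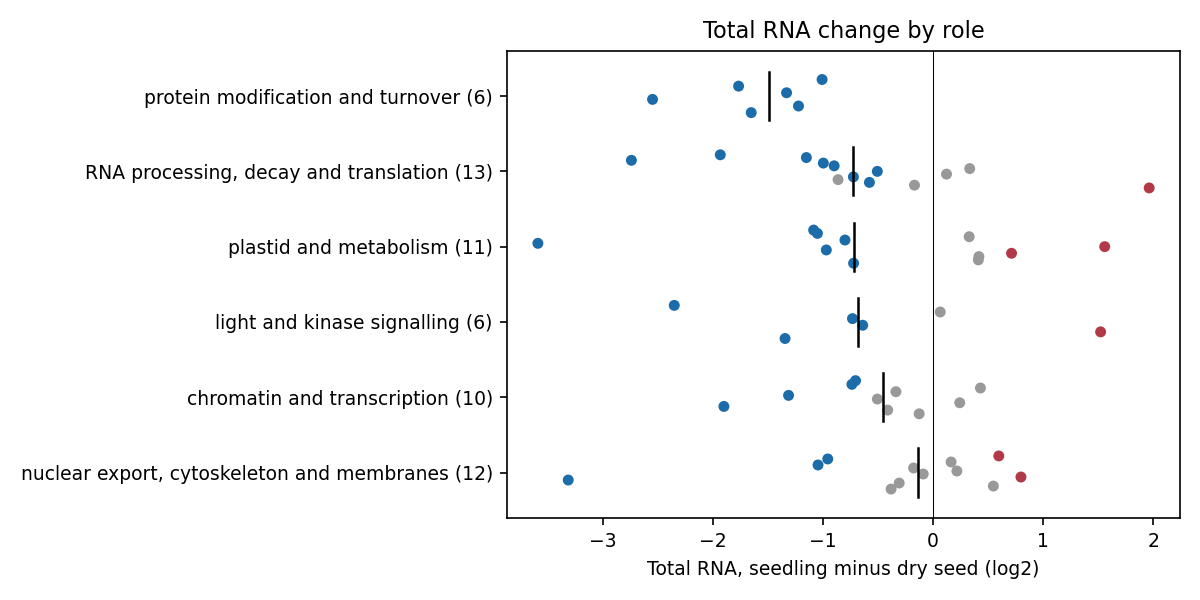
Change in total RNA, seedling minus dry seed (log2), of the 58 members with a role, by role group; blue points were called lower in seedlings, red points higher and grey points not called, and the black bar is the group median. All 6 points of protein modification and turnover lie under −1, and the group medians run from −1.49 to −0.13.

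The 42 members without an assigned role, most of them loci without a symbol, held 21 falls and 5 rises (median −0.42). With loess scaling they held 15 falls and 11 rises (median −0.09), and with median centring 29 falls and 2 rises (median −0.93). Among the falls were AT1G02890 with −2.44, AT5G42950 with −2.24, AT3G14330 with −2.22, G2484-1 (AT4G17330) with −1.90 and AT4G02480 with −0.72. The rises as deposited beside AT1G01320 and AT1G76810 were those of AT4G05631 with 0.74, AT5G42740 with 0.59 and AT5G47690 with 0.48. These were the smaller of the 5 rises, and median centring left only 2 rises among these members.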

How the data were processed

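RNA from 2 stages and 3 fractions was profiled on 18 arrays, grouped by their labels. The deposited table holds log2 intensities, 1 for each of 27827 loci, without detection calls. The submitters' processing notes name RMA, which as usually run corrects background, makes the arrays share 1 distribution and summarises probes. The deposited locus values did not share 1 median. Array medians over all loci were 3.05 to 3.17 in dry seeds and 3.44 to 3.65 in seedlings. Version, platform and probe grouping are not given in the sources used here. Arrays give no read depth, and their number limits the precision. Names came from the RefSeq gene table of TAIR10.1, which held 27241 of the loci and all 100 members; its coordinates and lengths were not used. Members, lists and tests were chosen with earlier results of these data known. Linear models with 6 group means were fitted to all loci in limma 3.58.1 under R 4.3.3 (12 residual degrees of freedom), with Benjamini-Hochberg adjustment and a threshold of 0.05, and were tested on simulated data. The model pools the spread of all groups. Members were tested in total RNA alone. Genes named were the first 10 by rank, the 5 highest at each stage, those at the edge of the list and those with a role. The 5 highest are not ranked in the text, since intensities of different probes are not comparable. The 5 largest rises and the 5 largest falls were also named, taken among called members with non-overlapping arrays. Others were named after their values were seen. Roles were written by hand once the members were known, because keywords in gene names placed 85 of 100 members in no class. Alternatives changed scaling, filter, variance prior, array weights, replicates, threshold and rule. Protein length and promoter motifs were planned but not analysed here. One member that the naming rule covers is counted but not reported by name here.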

Additional observations from a re-analysis of the deposited data

Results flagged for a closer look

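In 2 members a fraction lay on opposite sides of total RNA at the 2 stages, with every array of one group above every array of the other. These differences between stages were not tested. AT2G07718 read 6.72, 6.88 and 6.10 in seedling polysomal RNA, against 7.83, 7.45 and 7.38 in seedling total RNA, a difference of −0.99. In dry seeds it read 8.34, 8.25 and 8.33 in polysomal RNA, against 7.15, 7.11 and 7.17 in total RNA, a difference of 1.16. Its values are those of the mitochondrial row ATMG00590. AT5G16680 read 5.22, 4.86 and 4.30 in seedling monosomal RNA, against 5.61, 5.67 and 5.68 in seedling total RNA, a difference of −0.86. In dry seeds it read 7.42, 7.19 and 7.29 in monosomal RNA, against 7.01, 7.03 and 7.18 in total RNA, a difference of 0.23.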

How the results depend on the processing

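The member list was sensitive to its floor and score. A polysomal floor of 5 kept 34 of 100 members, a floor of 7 kept 23, and ranking by the difference over its spread kept 62. Leaving out single arrays, or 1 replicate of all 4 groups, kept 66 to 96. In total RNA median centring gave 5 rises and a median of −1.05, and loess 27 rises and a median of −0.21. Requiring 2-fold changes left 5 rises and 31 falls. Leaving out each total RNA array in turn gave 9 to 12 rises, 47 to 52 falls and medians of −0.63 to −0.52. With the replicate number as a block there were 13 rises, 53 falls and a median of −0.55. Same-numbered arrays of different groups correlated in their deviations between −0.058 and 0.078. For seedling polysomal against total RNA same-numbered pairs had 0.053 to 0.077, and differently numbered pairs −0.07 to −0.002. Such small values cannot decide whether the numbers pair the samples. Among the 77 genes followed through all alternatives, signs that turned were those of genes without a call. With median centring they were TPS7 (−0.09), EMB25 (−0.17), PKL (−0.08), MOR1 (−0.34), EHD1 (−0.29), TIC (−0.26), TOC159 (−0.18), EIF3A (−0.38), AT4G31570 (−0.25), HEMG2 (−0.10) and YAK1 (−0.44). With loess they were EDA10 (0.05), CHR11 (0.20), NSN1 (0.19), AT3G14205 (0.18), AT3G50370 (0.30), CYCT1;4 (0.02), SFC (0.26) and AT5G41109 (0.24). AT5G41109 also turned with the 75th percentile (0.01). Leaving out single total RNA arrays gave −0.18 to 0.07 for AT5G41109, −0.30 to 0.10 for CHR11, −0.14 to 0.13 for AT3G50370 and −0.16 to 0.01 for SFC. The cause of these shifts was not tested. Over those 77 genes and all alternatives 979 values kept sign and call, 44 gained a call, 28 lost one and 27 changed sign. AT5G47690, called higher at 0.48 as deposited, was not among the 77. Median centring lowered the member median from −0.55 to −1.05, about as much as that rise, so the sign of AT5G47690 is not firm. Protein length and promoter motifs, planned as descriptions, were not run. The number of arrays limits the precision, and signal over background is not known for these values.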
